A study of Arabidopsis thaliana with 6 samples.

Results

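Plant mitochondria can oxidise NAD(P)H and reduce oxygen through a set of enzymes that do not pump protons. Of 10 Arabidopsis thaliana loci chosen by name for this alternative respiration, 7 could be tied to a probe set and are described here. They are the NAD(P)H dehydrogenase genes NDB1 (AT4G28220), NDB2 (AT4G05020), NDB3 (AT4G21490), NDB4 (AT2G20800) and NDC1 (AT5G08740), the alternative oxidase gene AOX1A (AT3G22370) and the mitochondrial stress gene AT2G21640, also known as UPOX. For 6 of them the probe set came from the platform annotation, with 1 probe set per locus. The probe set of AOX1A is not listed in that annotation and was assigned by name in the selection rule. The internal dehydrogenase genes NDA1 (AT1G07180) and NDA2 (AT2G29990) and the oxidase gene AOX1D (AT1G32350) were not analysed here. These 7 probe sets are among 22746 that were tested.

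Type II NAD(P)H dehydrogenases pass electrons from NADH or NADPH to ubiquinone and bypass complex I. The NDB enzymes face the space between the mitochondrial membranes and take their substrate from the cytosol, the NDA enzymes face the matrix, and NDC1 is also found in plastids, where it acts on plastid quinones. Alternative oxidase takes electrons from ubiquinol to oxygen and bypasses complexes III and IV, so that a dehydrogenase and an oxidase together make a chain without proton pumping. In Arabidopsis, AOX1A and NDB2 are widely used as a pair of transcripts that respond to mitochondrial stress.

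Leaves came from plants aged 3 to 4 weeks. The SA group was sprayed with 1 mM salicylic acid (SA), a phenolic hormone of plant defence, in 0.01% Silwet, a wetting agent that the mock group received alone, and leaves were harvested 2 hours later. Each group had 3 biological replicates with 1 array each. The labels used here name no accession or genotype, and they do not say what the replicate numbers stand for. All values are log2 signals made by the authors with RMA, a method that corrects background, normalizes between arrays and summarises the probes of a probe set. A change is the difference of SA and mock means on this scale with its standard error (SE) from limma, and a gene passed at a Benjamini-Hochberg adjusted p under 0.05 over all 22746 probe sets.

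Median signals per array lay between 7.41 and 7.46 in SA and between 7.49 and 7.51 in mock, and correlations between arrays between 0.959 and 0.986. Arrays numbered 1 stood apart in both groups: the 3 prime probe set of the dap spike-in control gave 11.42 in SA and 11.52 in mock replicate 1 and between 8.27 and 8.44 on the other 4 arrays. Same-numbered arrays also deviated from their group means together, with correlations of 0.75, 0.46 and 0.55, so a second fit that includes the replicate number as a block is reported wherever a call depends on it. Apart from AOX1A, a gene is called measured here if the platform annotation tied it to a probe set. Of the 22746 tested probe sets 8730 are not listed there, so other genes may still have a probe set on the array. Of 11 listed SA response markers 2 were measured, UGT76B1 and GRX480. They rose by 6.43 and 3.43 log2 units (limma adjusted p = 0.00856 and 0.0132). Without SA replicate 2, SA replicate 3 or mock replicate 3 their adjusted p lay between 0.0512 and 0.0587, and without both arrays numbered 1 that of GRX480 was 0.0772. Of 10 leaf mesophyll markers 3 were measured, RCA, LHCB4.2 and PRK, with signals of 12.65 to 14.11 on single arrays. Their changes of 0.0044, -0.23 and -0.25 did not pass (limma adjusted p = 0.995, 0.388 and 0.408). Their summed linear signal was 31562 to 35659 in SA and 35684 to 38805 in mock leaves. Of 12 markers of other cell types 3 were measured, FMA and SPCH of the stomatal lineage and TRY of trichomes, with changes of -0.22, 0.0040 and -0.36 that did not pass. Their summed linear signal was 244 to 331 in SA and 294 to 363 in mock leaves, and none was at 0.

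NDB2 was the 1 gene of the 7 that passed the test, and it rose. NDB2 encodes an external NADH dehydrogenase whose activity is stimulated by calcium. Its log2 signal was 9.80, 9.99 and 10.47 in SA replicates 1, 2 and 3, against 8.80, 8.68 and 8.95 in mock replicates 1, 2 and 3. The lowest SA array lay above the highest mock array. The mean was 10.08 ± 0.35 in SA and 8.81 ± 0.14 in mock (SD, n = 3 each), a 2.42-fold difference with a 95% confidence interval of 1.75 to 3.33. On the log2 scale the change was 1.27 ± 0.19 (SE; limma adjusted p = 0.0462), and 0.976% of all probe sets passed as rises. Of all probe sets, 0.954% had a smaller p and 98.4% a smaller absolute change than NDB2. The mesophyll marker sum was lower in SA than in mock arrays without overlap, but narrowly, at most 35659 against at least 35684. None of the 3 markers passed. The part of this sum in the NDB2 result and the following ones was not tested. In whole leaves, more RNA per cell and more cells of a type cannot be told apart.

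In every numbered pair NDB2 was higher in SA, by 1.00, 1.30 and 1.52 log2 units for the pairs numbered 1, 2 and 3. With the replicate number as a block the adjusted p was 0.00776, and with a block for the arrays numbered 1 it was 0.0206. The call ended without any single array: the adjusted p was 0.0714, 0.111 and 0.0807 without SA replicates 1, 2 and 3 and 0.0947, 0.196 and 0.120 without mock replicates 1, 2 and 3. It also ended without both arrays numbered 1, where the change was 1.41 (adjusted p = 0.104), and with 32 linear units added before taking log2 (adjusted p = 0.0605).

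**Figure D1:**
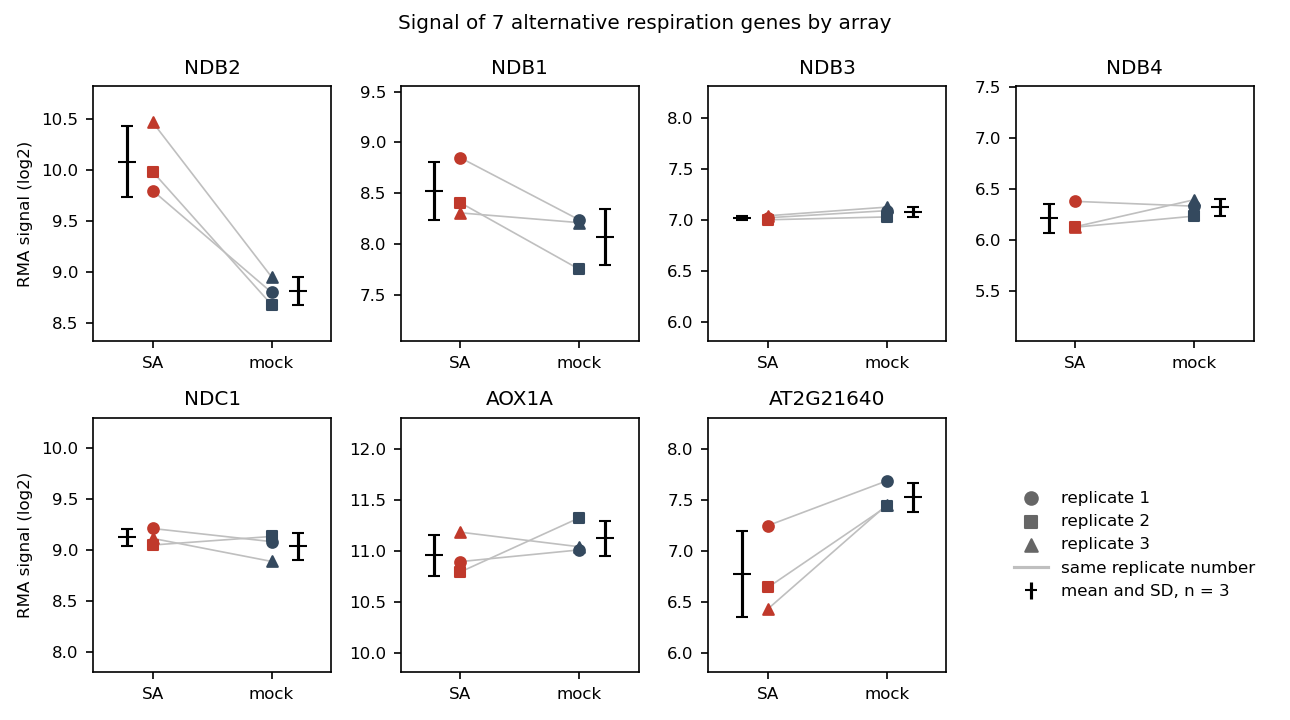
RMA signal (log2, vertical axis, each panel spanning the same range) of 7 genes on 3 SA arrays (red, left) and 3 mock arrays (dark, right); symbols mark the replicate number, grey lines join arrays of the same number, and black bars give the mean and SD. NDB2 lies at 9.80 to 10.47 in SA and 8.68 to 8.95 in mock, AT2G21640 lies lower in SA on all 3 arrays, and AOX1A, NDC1, NDB3 and NDB4 overlap between the groups.

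The other external dehydrogenases had smaller changes. NDB1, which prefers NADPH and depends on calcium, had log2 signals of 8.85, 8.41 and 8.31 in SA replicates 1, 2 and 3, against 8.24, 7.76 and 8.21 in mock replicates 1, 2 and 3. The groups did not overlap, but the lowest SA array and the highest mock array were less than 0.1 log2 units apart. The change of 0.45 ± 0.20 did not pass (limma adjusted p = 0.389), nor did it with the replicate block (adjusted p = 0.114). Its 95% interval reached from 0.977-fold to 1.92-fold. The fitted value of NDB2 lay outside it, but the NDB2 interval of 1.75-fold to 3.33-fold overlapped with it. With the replicate block the 95% interval of NDB1 ran from 0.10 to 0.80 log2 units and did not include 0. By pair, NDB1 differed by 0.61 and 0.65 in the pairs numbered 1 and 2 and by 0.096 in the pair numbered 3. Without both arrays numbered 1 the change was 0.37 (adjusted p = 0.504).

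NDB4 encodes an external NADH dehydrogenase, and NDB3 is the remaining gene of this subfamily. Both had signals below the median of all probe sets. NDB3 had log2 signals of 7.02, 7.00 and 7.04 in SA replicates 1, 2 and 3, against 7.09, 7.03 and 7.13 in mock replicates 1, 2 and 3. The 6 arrays spanned 0.12 log2 units, and the change was -0.061 ± 0.088 (adjusted p = 0.893). NDB4 had log2 signals of 6.38, 6.13 and 6.13 in SA replicates 1, 2 and 3, against 6.33, 6.24 and 6.40 in mock replicates 1, 2 and 3, and its groups overlapped. The change of NDB4 was -0.11 ± 0.11 (adjusted p = 0.817). The 95% intervals of the fold change ran from 0.827 to 1.11 for NDB3 and from 0.766 to 1.12 for NDB4, so neither included a rise of the size fitted for NDB2. Signals this low carry a larger share of background, and a change of a dim transcript may be understated. Whether the probes of 1 NDB gene also bind transcripts of another was not tested.

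NDC1 had log2 signals of 9.21, 9.05 and 9.12 in SA replicates 1, 2 and 3, against 9.09, 9.14 and 8.89 in mock replicates 1, 2 and 3. The groups overlapped, and the change of 0.090 ± 0.11 lay within the spread between replicates (limma adjusted p = 0.860). The pair numbered 2 went the other way, at -0.084, while the pairs numbered 1 and 3 gave 0.13 and 0.23. Of 7 listed genes that act with plastid quinones or in electron flow around photosystem I, 2 were measured. MENG, a methyltransferase of phylloquinone synthesis that works after NDC1 in that pathway, had a mean of 9.09 ± 0.13 in SA and 9.48 ± 0.043 in mock (SD, n = 3 each). Its change of -0.38 ± 0.10 did not pass (adjusted p = 0.158, and 0.0778 with the replicate block). PGRL1B, a protein of cyclic electron flow around photosystem I, had a change of -0.48 ± 0.18 (adjusted p = 0.286, and 0.0621 with the block).

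AOX1A, the alternative oxidase gene best known for its stress response, did not pass. Its log2 signal was 10.89, 10.79 and 11.18 in SA replicates 1, 2 and 3, against 11.01, 11.32 and 11.04 in mock replicates 1, 2 and 3. SA replicate 3 lay above 2 of the 3 mock arrays, and the other 2 SA arrays lay below all 3 mock arrays. The mean was 10.96 ± 0.20 in SA and 11.12 ± 0.17 in mock (SD, n = 3 each), a change of -0.17 ± 0.15 (limma adjusted p = 0.761, and 0.579 with the replicate block). The 95% interval of the fold change was 0.694 to 1.14, so a rise of the size fitted for NDB2 lay outside it. Pairs numbered 1, 2 and 3 gave AOX1A differences of -0.11, -0.53 and 0.14. Where the pair numbered 2 showed the lowest AOX1A difference, NDB2 was higher in SA by 1.30.

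AT2G21640 encodes a mitochondrial protein whose transcript is used as a marker of oxidative stress in mitochondria. Its log2 signal was 7.25, 6.64 and 6.43 in SA replicates 1, 2 and 3, against 7.69, 7.44 and 7.45 in mock replicates 1, 2 and 3. All SA arrays lay below all mock arrays. The mean was 6.77 ± 0.42 in SA and 7.53 ± 0.14 in mock (SD, n = 3 each). The change was -0.75 ± 0.22 and did not pass without a block (limma adjusted p = 0.187). It passed with the replicate block (adjusted p = 0.0298) and with a block for the arrays numbered 1 (adjusted p = 0.0372). Pairs numbered 1, 2 and 3 gave differences of -0.44, -0.79 and -1.02. Without both arrays numbered 1 the change was -0.91 (adjusted p = 0.102). The 95% interval without the block ran from 0.409-fold to 0.862-fold, and 93.5% of all probe sets had a smaller absolute change. Its mean signal over the 6 arrays lay below the median of all probe sets. With 32 linear units added before taking log2 the change was -0.61 (limma adjusted p = 0.210).

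**Figure D2:**
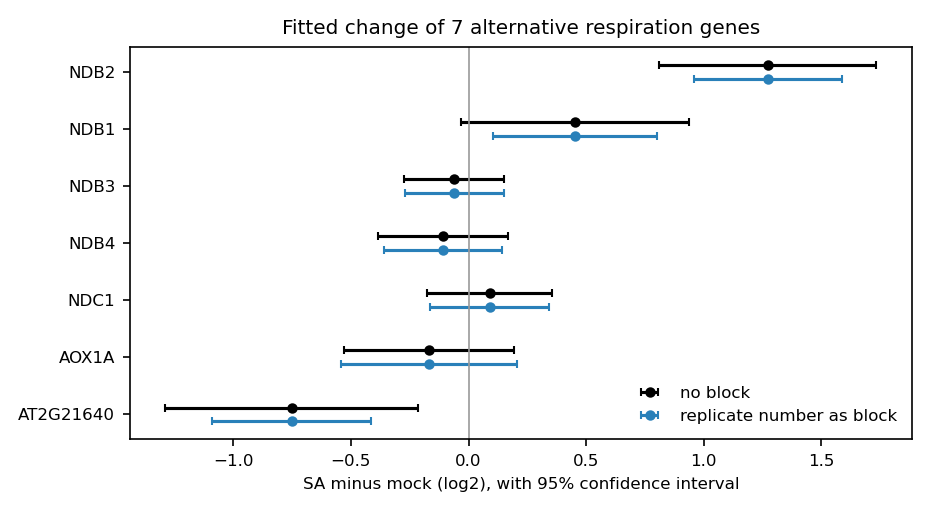
Fitted SA minus mock change (log2, horizontal axis) of the 7 genes with its 95% confidence interval, without a block (black, upper of each pair) and with the replicate number as a block (blue, lower). NDB2 is at 1.27 and AT2G21640 at -0.75, and the intervals of NDB3, NDB4, NDC1 and AOX1A include 0 in both fits. The interval of NDB1 includes 0 only without the block.

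Counted together, 1 of the 7 genes passed, against 1.47% of all probe sets. With the replicate block 2 passed, against 10.4% of all probe sets: NDB2 as a rise, where 5.57% of all probe sets passed, and AT2G21640 as a fall, where 4.83% passed. Groups did not overlap for 3 of the 7, NDB2, NDB1 and AT2G21640, against 18.6% of all probe sets. The 3 numbered pairs had the same sign in 4 of the 7, these 3 and NDB3, against 46.4%. The unadjusted p was under 0.05 in 2 of the 7, against 14.4%. The median change of the 7 was -0.061 log2 units, beside -0.011 over all probe sets, and the median absolute change was 0.17, beside 0.13. With 7 genes, 1 gene more or less moves each of these counts widely, and the genes were chosen with earlier results known.

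The change of NDB2 was set against that of each other gene by taking the difference of the log2 signals within each array. These differences were higher in SA than in mock for all 6 comparisons, with no overlap between the groups. The change of NDB2 exceeded that of NDB1 by 0.82, that of NDB3 by 1.33 and that of NDB4 by 1.38 log2 units. It exceeded that of NDC1 by 1.18, that of AOX1A by 1.44 and that of AT2G21640 by 2.02. Within the pairs numbered 1, 2 and 3 the excess over AOX1A was 1.11, 1.83 and 1.37, and the excess over NDB1 was 0.39, 0.65 and 1.42. Each comparison had p = 0.1 in a two-sided exact permutation test, which is the smallest p that 3 arrays against 3 allow, and 0.1 after adjustment over the 6. This test could therefore not pass at 0.05, and all 6 comparisons share the NDB2 values. NDB2 was also the 1 member that passed in these same arrays. The lack of overlap therefore follows largely from its own values and is no separate support for its change.

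The rest of the respiratory chain was looked at in lists of nuclear genes for the complexes. Of 72 listed genes for complexes I to IV with cytochrome c and assembly factors, 40 were measured. limma called 0 of them, with 0 at an unadjusted p under 0.05, against 1.47% and 14.4% of all probe sets. Their median change was -0.042, with 17 above and 23 below 0 and a range from -0.47 to 0.28. With the replicate block 1 of the 40 passed, as a fall, against 10.4% of all probe sets passing and 4.83% passing as falls. It was AT5G57815, a subunit of cytochrome c oxidase of the 6b type. Its change was -0.47 ± 0.31 (SE without the block), with an adjusted p of 0.622 without and 0.0390 with the block.

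Complex I, which the type II dehydrogenases bypass, had 15 measured genes with a median change of -0.045 and a range from -0.28 to 0.11. The smallest p among them belonged to AT3G12260, with a change of -0.25 ± 0.12 (adjusted p = 0.408), and AT5G11770, AT2G33220 and AT1G67350 had changes of -0.28, -0.14 and -0.13. Complex II, succinate dehydrogenase, had 4 measured genes, of which SDH1-2 had a change of 0.12 and SDH1-1, SDH2-1 and SDH2-2 had changes of -0.14, -0.12 and -0.076. Complex III with cytochrome c had 12 measured genes with a median of 0.094, and CYTC-1, a cytochrome c gene, had a change of 0.23 ± 0.24 (adjusted p = 0.819). AT4G32470, AT3G10860 and AT2G01090 of complex III had changes of -0.19, -0.17 and 0.15. Complex IV and its assembly factors, which share the role of oxygen reduction with alternative oxidase, had 9 measured genes with a median of -0.15. Among them AT1G02410, a copper chaperone of complex IV assembly, had the highest change at 0.28 ± 0.12 (adjusted p = 0.387), and AT5G61310 and AT4G37830 had changes of -0.34 and -0.15. The 10 subunit genes encoded in the mitochondrion that the annotation names, 8 nad genes and 2 cox genes, were grouped after the data were seen. They had 17 probe sets, of which 1 per gene is reported, and how far the values depend on that choice was not tested. Of the 10 genes, 9 lay above 0 and 1 below, with a median of 0.16 and a range from -0.099 to 0.32. limma called 0 of them in either fit, against 1.47% of all probe sets without and 10.4% with the block. Without the block 0 of them had an unadjusted p under 0.05, against 14.4%. All but cox1 had signals below the median of all probe sets. The SE of cox2, nad4 and nad4L was 0.52, 0.43 and 0.42.

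**Figure D3:**
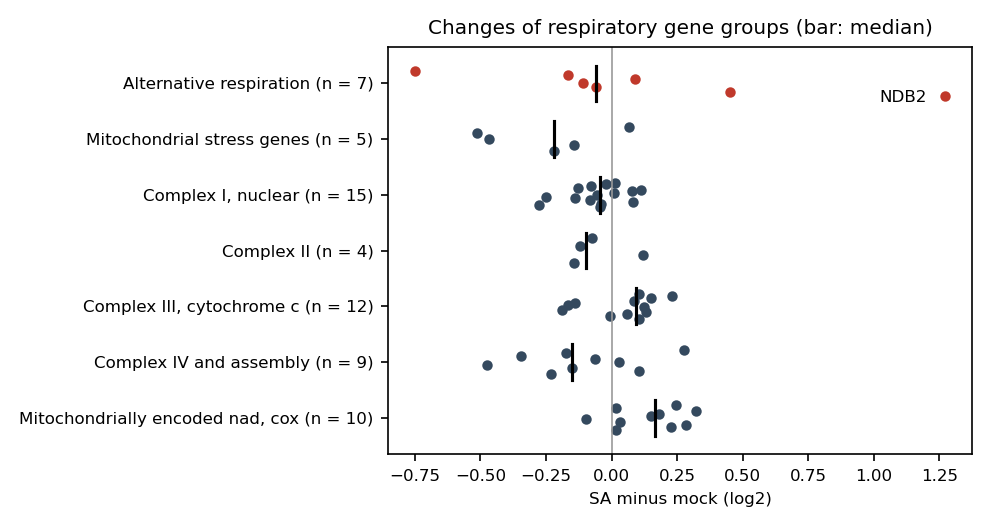
SA minus mock change (log2, horizontal axis) of each measured gene, 1 point per gene, in 7 groups of respiratory genes; the vertical bar is the group median. NDB2, at 1.27, lies to the right of all other genes plotted, while the 40 nuclear genes for complexes I to IV span -0.47 to 0.28.

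Beside AOX1A, NDB2 and AT2G21640, 13 other genes of the mitochondrial stress response were listed, and 5 of them were measured. limma called 0 of the 5, against 1.47% of all probe sets, and 4 lay below 0. An unadjusted p under 0.05 was found in 0, against 14.4%, and 0 passed with the block, against 10.4%. With 5 genes, counts of 0 are near these shares. AT2G41730 had log2 signals of 8.21, 7.66 and 9.21 in SA replicates 1, 2 and 3, against 8.45, 9.11 and 9.05 in mock replicates 1, 2 and 3. Its groups overlapped, and its change was -0.51 ± 0.41 (adjusted p = 0.716). The change of AT2G41730 was -0.16 without SA replicate 2 and -0.94 without SA replicate 3. AT5G51440, a small heat shock protein of mitochondria, had a change of -0.47 ± 0.34 (adjusted p = 0.671, and 0.0610 with the block). AT5G09570 and AT5G64400, which encode mitochondrial proteins with twin cysteine motifs, had changes of -0.22 and -0.15. The median of the 5 was -0.22. Other oxidases, regulators of retrograde signalling and uncoupling carriers on the lists were not analysed here.

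The genes whose signal pattern over the 6 arrays was most like that of a member were found by Pearson's r among the 2406 other genes that ranged over at least 1 log2 unit. For NDB2 these were AT1G72900, AT4G01870, AT4G30640, AT4G11100 and AT4G18950, with r from 0.985 to 0.993. Their changes ran from 1.13 in AT4G11100 (limma adjusted p = 0.0352) to 3.24 in AT4G01870, which passed only in the fit with the block (adjusted p = 0.00579, against 0.0718). The other 4 passed in both fits. For AT2G21640 they were BGLU44, HAT2, AT5G18590, LUL1 and AT5G58490, with r from 0.983 to 0.989. Their changes ran from -1.15 in BGLU44 to -0.56 in AT5G58490, and like AT2G21640 itself none passed without the block (adjusted p from 0.106 to 0.231) and all 5 passed with it (0.0127 to 0.0388). For AOX1A, among 2407 genes, they were AT2G36220, AT5G28630, AT2G41730, AT5G02180 and AGL87, with r from 0.869 to 0.967. AT2G41730 of the stress list was thus among those nearest to AOX1A, and its low SA replicate 2 and high SA replicate 3 show the shared pattern. Whether the probe set of AT2G41730, an x_at set, also binds other transcripts was not tested. The 6 arrays share the 2 treatments and the replicate numbers, so these values describe likeness over few points. All these genes were picked for likeness over the same arrays. Their directions and calls therefore follow largely from the picking and are no separate support for a member's change.

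Genes beside the 7 on the chromosomes, taken as the 2 protein-coding genes on each side in the RefSeq order of assembly TAIR10.1, were measured in 14 of 28 cases. Without the block limma called 0 of the 14, and 4 had an unadjusted p under 0.05, against 14.4% of all probe sets. These 4 passed with the replicate block, against 10.4% of all probe sets. AT4G05030 and AT4G05040, the 2 genes that follow NDB2, had changes of 0.025 and -0.040. The 2 genes that follow NDB1, AT4G28230 and AT4G28240, had changes of -0.80 (adjusted p = 0.122, and 0.0335 with the block) and -1.10 (adjusted p = 0.234, and 0.0158 with the block). AT4G21500, which follows NDB3, had a change of 0.64 (adjusted p = 0.186, and 0.0234 with the block). RD2, which lies 2 genes before AT2G21640, had a change of 0.46 (adjusted p = 0.189, and 0.0354 with the block). These 4 genes and the 2 that follow NDB2 were chosen for naming after their values were seen.

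**Figure D4:**
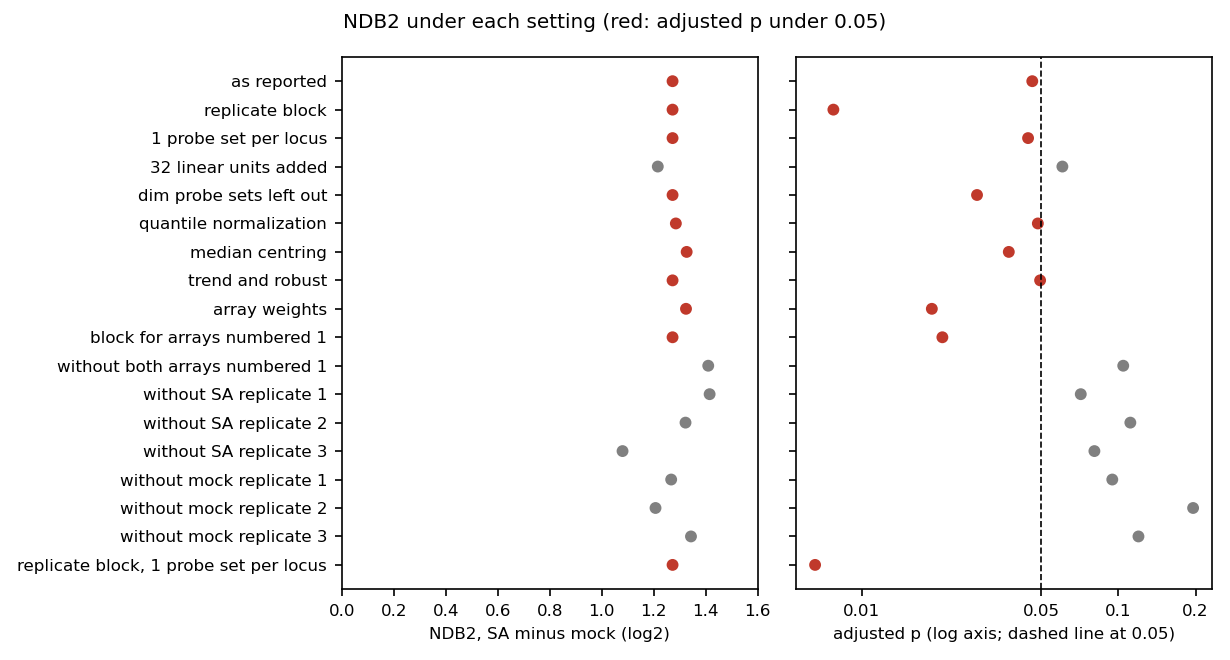
NDB2 under each way of processing: the SA minus mock change (log2, left) and its adjusted p (log axis, right, dashed line at 0.05), with red points where the adjusted p was under 0.05. The change stays between 1.08 and 1.42, while the adjusted p passes in 9 of 17 alternatives and in 0 of the 6 that leave out a single array.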

How the data were processed

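The deposited table holds log2 signals of 22810 probe sets on 6 arrays, computed by the authors with RMA according to the labels (per the submitters' processing notes). The RMA version and any filters are not given in these sources, and scanner files were not used here. All 64 AFFX control probe sets stayed out of the tests. The platform annotation listed 14016 of the other 22746, 13513 with 1 gene and 503 with several; 13436 had a gene identifier found in RefSeq (TAIR10.1), giving 13286 loci after the brightest probe set per locus was kept. SA and mock were compared on the deposited log2 values with limma 3.58.1 in R 4.3.3 (lmFit, eBayes), treatment as the only term, adjusted over 22746 probe sets, and with alternatives given in the closing section. A limma fit without a block was tested on simulated arrays with planted changes and independent noise. The block fits and gene lists were not part of that test. Quantile steps in RMA would remove a shift shared by most transcripts. The number of arrays limits the precision.

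The members, lists and tests were chosen with earlier results of these data known. Named genes are all 7 measured members, called list genes and up to 4 genes of smallest p per list, and the 5 most alike genes; the neighbouring genes named were chosen after their values were seen. All correlations of same-numbered arrays were above 0.1 (0.75, 0.46 and 0.55), which pairs the arrays from the values, not from the labels; of differently numbered pairs SA 2 with mock 3 gave 0.14 and the others were below 0. The limma p-values weigh the difference of SA and mock against the spread between these samples within the groups. In the fits with a block they weigh it against the spread that remains after the block. Sequences of probes, promoters and proteins were not used here.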

Additional observations from a re-analysis of the deposited data

How the results depend on the processing

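Over all 22746 probe sets limma called 334. It called 2365 with the replicate block, 1262 with a block for the arrays numbered 1 and 886 with array weights. It called 213 with 32 linear units added, 196 with a trended and robust variance and 11 without both arrays numbered 1. With 1 probe set per locus only 13287 were tested, and 217 of these were called. With the replicate block as well, an alternative chosen after seeing the data, 1315 of the 13287 were called. Leaving out 1 array gave 0 to 98, with 0 without SA replicate 2, SA replicate 3 or mock replicate 3, where 2940, 2666 and 3034 had an unadjusted p under 0.05. Of the 7 members 1 passed. With the replicate block and with a block for the arrays numbered 1, 2 passed, where 2365 and 1262 of all 22746 passed. With the replicate block on 1 probe set per locus 2 passed, where 1315 of 13287 passed. With 32 units added, without both arrays numbered 1 and without any single array 0 passed (range 0 to 0). There 213, 11 and 0 to 98 of all probe sets passed, so counts of 0 are near these shares. In these settings 2 or 3 members had an unadjusted p under 0.05, against 2244 to 3331 of all 22746. The change of NDB2 was 1.22 with 32 units added and 1.41 without both arrays numbered 1, no longer past the threshold, and 1.08 to 1.42 without 1 array. It passed in the other 9 alternatives, with adjusted p from 0.00658 to 0.0496. Among the members and the list genes named, the replicate block changed the calls of AT2G21640 and AT5G57815; the calls it changed among neighbouring genes and genes of like pattern are given with their values above. No member changed direction under any alternative. Among the list genes named, signs turned only in the following, whose reported changes ran from -0.17 to 0.0044. SPCH gave -0.0030 with 32 units, -0.015 with quantile normalization, -0.0051 without both arrays numbered 1, and -0.16 to 0.25 without 1 array. RCA gave -0.013 with array weights, -0.051 without both arrays numbered 1, and -0.061 to 0.066 without 1 array. Without 1 array, SDH2-1 gave -0.23 to 0.040, SDH1-1 gave -0.27 to 0.024 and AT3G10860 gave -0.27 to 0.013. The cause was not tested. No member had a further probe set to compare, and the filter on dim probe sets left NDB3, NDB4 and AT2G21640 without a value.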
